A study of Mus musculus with 3 samples.

Results

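The genes described here lie within 10 Mb on either side of Fgfrl1 on mouse chromosome 5, the gene that was inactivated in the knock-out mice. They were chosen by position alone: every named, non-control probe of the array whose position in the files, on the mm8 build, falls between 98946807 and 118946866 on chromosome 5, with Fgfrl1 left out. This gave 445 of the 41174 probes and 302 of the 27591 genes and transcripts tested, 131 at lower and 171 at higher positions than Fgfrl1. A further 1335 genes lie elsewhere on chromosome 5. A gene was measured by its brightest probe, and for 1 more gene with a probe in the window, BC029127, the brightest probe lies outside it. Of the 302, 215 have a RefSeq name and 87 keep the name that the files give.

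Kidney rudiments of Fgfrl1-/- and wildtype embryos, both labelled as C57BL/6, were taken at E12.5, and RNA was prepared from pools of 6 to 9 rudiments. On each of 3 Agilent arrays 1 Fgfrl1-/- pool, labelled with Cy3, was compared with 1 wildtype pool, labelled with Cy5. Dyes were swapped on 0 of the 3 arrays, and an effect of dye and an effect of genotype cannot be told apart. Which exons the knock-out allele lacks, and the strain of the embryonic stem cells in which it was made, are not given in the sources used here.

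Fgfrl1 is a receptor of the fibroblast growth factor receptor family that has no tyrosine kinase domain and is needed for the metanephric kidney. In a mouse line with a targeted gene, the neighbouring stretch of the chromosome is inherited together with the altered allele. The genes beside such a locus can therefore differ between mutant and wildtype animals in ways that a gene on another chromosome does not, for example through a marker cassette or through alleles of the stem cell strain. The comparison asked whether the genes around Fgfrl1 differed more than others between the genotypes, and whether the difference grew towards the locus. The window holds no single pathway. It includes a cluster of bone and tooth matrix genes (Sparcl1, Dspp, Dmp1, Ibsp, Mepe, Spp1), the guanylate-binding proteins, a group of vomeronasal receptors, beta-crystallins and many genes with general cellular roles.

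Each probe is 60 bases long, and the ratios below stand for these short stretches and not for whole transcripts. The first 30 bases are shown for the 2 genes that were higher in Fgfrl1-/- and passed the test, Sparcl1 and Tmem119, and for Suds3 and Gatc, whose pairs of probes gave different ratios. Sequences and positions are those of the array files, on mm8 and on the minus strand of chromosome 5.
Sparcl1, chr5:104319432-104319491: agtgagatactgctcttttgagataaatat
Sparcl1, chr5:104319553-104319612: tctggggacagttagccaccatggcaatgt
Tmem119, chr5:114054952-114055011: cagaactcttctctgtcagtccacgaagta
Suds3, chr5:117353287-117353346: tgctctgagcagtttccagcgaacacgatt
Suds3, chr5:117353593-117353652: cctcctttgagtttgaagggaagctcgttt
Gatc, chr5:115594642-115594701: tgaactcctattatggagagttcagtttac
Gatc, chr5:115595540-115596471: ccccaggtaatatttccttgccagacatgg
The second Gatc probe covers more of the genome than its 60 bases, so its match is split, as are those of both probes for Prkg2, at chr5:99182466-99183722 and chr5:99213465-99216753. No gene annotation of mm8 was used here, and whether a probe lies in an untranslated region is not stated.

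Arrays 2 and 3 shared a slide, while array 1 was on a slide of its own. Over the 302 genes, which share the arrays and are no replicates of each other, Pearson's r of the log2 ratios was 0.748 between the arrays of the shared slide, but 0.199 between arrays 1 and 2 and 0.322 between arrays 1 and 3. For all genes the values were 0.725, 0.138 and 0.240, so that array 1 stood apart from the others in the window as elsewhere. By the flags of the scanner software, the share of the probes of the window that stood well above background on an array was between 58.9% and 80.0% for Fgfrl1-/- and between 63.6% and 68.5% for wildtype. In both channels of all 3 arrays, 178 of the 302 genes were well above background, and 55 were so in neither channel of any array. Of 10 markers of the kidney rudiment, 9 were well above background throughout, while Ret, the receptor of the ureteric bud for Gdnf, was so on 0 arrays.

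Fgfrl1 itself was lower in all Fgfrl1-/- pools. Its log2 signal was 9.25, 8.22 and 8.20 in the Fgfrl1-/- pools of arrays 1, 2 and 3, against 10.46, 9.73 and 10.02 in the wildtype pools, so that the groups did not overlap. The mean log2 ratio of Fgfrl1-/- over wildtype was -1.52 ± 0.31 (SD, n = 3 arrays), with an adjusted p of 0.0289 by limma's moderated test. Whether the probe lies in the part removed from the knock-out allele is not given in the sources used here. In whole rudiments, fewer cells that express a gene and less RNA per cell cannot be told apart, which holds for every ratio below.

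The nearest measured genes on both sides of Fgfrl1 did not pass the test. Idua, which encodes a lysosomal enzyme that degrades heparan and dermatan sulfate, has its probe 23.0 kb away on the lower side. Its log2 ratios were -0.45, -0.01 and -0.09, with a mean of -0.18 ± 0.24 and an adjusted p of 0.482. Rnf212, a meiotic recombination factor whose probe lies 22.9 kb away on the upper side, had log2 ratios of 0.02, -0.13 and -0.02, with a mean of -0.04 ± 0.08 and an adjusted p of 0.836. For both genes the difference between the genotypes was smaller than the spread between arrays, and neither probe was well above background throughout.

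The other neighbours no farther from Fgfrl1 than Atp5k had mean log2 ratios up to 0.30 in size, apart from the transcript TC1631207 described below. Of these neighbours, 0 passed the test. Slc26a1, a sulfate and oxalate transporter whose probe lies 36.5 kb from that of Fgfrl1, had a mean log2 ratio of 0.20 ± 0.22 (adjusted p = 0.419). Dgkq, a diacylglycerol kinase, and Tmem175, a lysosomal potassium channel, have probes on opposite strands that end within 10 bases of each other, at 59.4 and 59.5 kb. Their mean log2 ratios were 0.07 ± 0.11 and 0.30 ± 0.23. The value of Tmem175 rested on arrays 1 and 3, with log2 ratios of 0.47 and 0.38, while array 2 gave 0.04. Gak, the cyclin G-associated kinase that uncoats clathrin vesicles, had a mean of 0.04 ± 0.10, and Pcgf3, a Polycomb group protein, had -0.20 ± 0.24. The synaptic vesicle gene Cplx1 had -0.07 ± 0.14 and Tmed11, which was well above background on 0 arrays, had -0.06 ± 0.04. Atp5k, a subunit of the mitochondrial ATP synthase, had log2 ratios of -0.16, -0.38 and -0.15 and an adjusted p of 0.242.

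None of the 39 genes within 1 Mb passed limma's test at an adjusted p below 0.05, while 7 of them had an unadjusted p below 0.05. Over all 27591 genes, 0.533% were lower and 0.453% were higher in Fgfrl1-/- at this threshold, and 16.5% had an unadjusted p below 0.05. The 7 genes with an unadjusted p below 0.05 were all among the 29 below Fgfrl1, or 24.1% of these. The smallest adjusted p among the 39 was 0.0765. Their mean log2 ratios lay between -0.53 and 0.47, and for 26 of the 39 the mean was smaller than the SD over the 3 arrays. At least a 1.5-fold difference was found for 0 of the 39, against 1.57% of all genes. The 39 genes are uneven in position, with 29 below and 10 above Fgfrl1, and the 10 above, among them Vmn2r10 and Vmn2r14, which are vomeronasal receptor genes, had mean log2 ratios from -0.06 to 0.08.

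**Figure D1:**
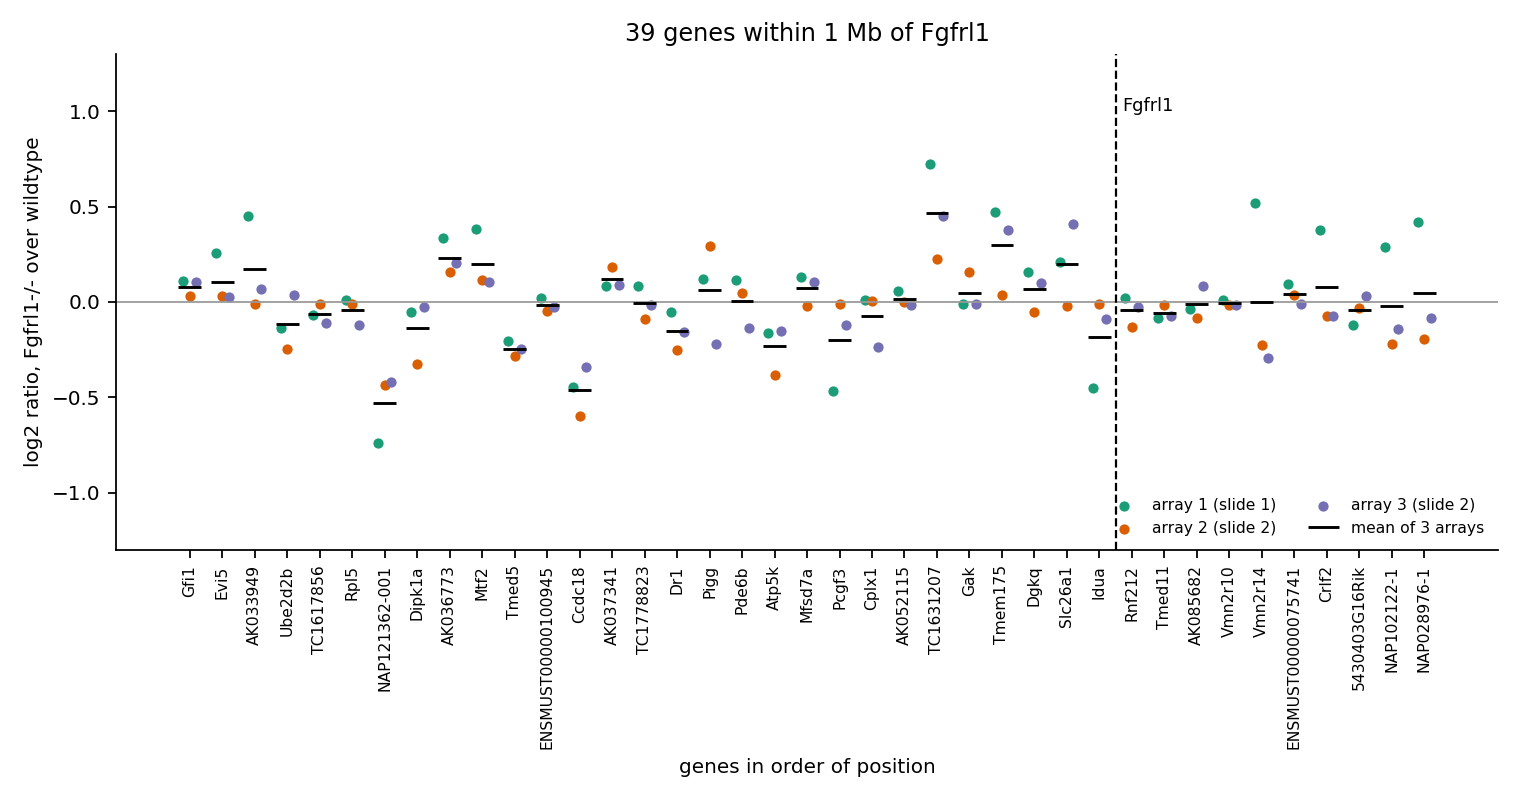
Log2 ratios of Fgfrl1-/- over wildtype on each of the 3 arrays for the 39 genes within 1 Mb of Fgfrl1, in order of position, with black bars for the means and a dashed line at the place of Fgfrl1. The means lie between -0.53 and 0.47, and those of the 10 genes to the right of the line lie between -0.06 and 0.08.

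The values farthest from 0 within 1 Mb came from 3 genes on the lower side. The transcript NAP121362-001, at 798 kb, had log2 signals of 12.22, 12.38 and 12.38 in the Fgfrl1-/- pools and 12.96, 12.82 and 12.80 in the wildtype pools. The groups did not overlap, the mean log2 ratio was -0.53 ± 0.18 and the adjusted p was 0.0765. Ccdc18, a coiled-coil gene at 478 kb, had log2 signals of 7.27, 8.15 and 8.19 against 7.71, 8.75 and 8.53, with a mean log2 ratio of -0.46 ± 0.13 and an adjusted p of 0.0771. Its groups overlapped because both signals were lower on array 1, but the ratio had the same sign on each array. The transcript TC1631207 at 138 kb, whose probe lies within 1 kb of that of Gak on the same strand, was well above background in all Fgfrl1-/- pools and in 0 wildtype pools. It had log2 ratios of 0.72, 0.22 and 0.45, with a mean of 0.47 ± 0.25 and an adjusted p of 0.121. Its mean log2 signal was only 6.24. On array 1, 80.1% of all probes were well above background for Fgfrl1-/- and 60.9% for wildtype.

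With both sides pooled, the size of the differences did not grow towards Fgfrl1. The median absolute log2 ratio was 0.072 for the 39 genes within 1 Mb, 0.096 for the 38 genes between 1 and 2 Mb, 0.120 for the 72 genes between 2 and 5 Mb and 0.108 for the 153 genes between 5 and 10 Mb. On the rest of chromosome 5 it was 0.100 for the 266 genes between 10 and 20 Mb, 0.099 for the 485 genes between 20 and 40 Mb and 0.097 for the 584 genes beyond. The nearest pooled class thus had the smallest median, but the sides differed. For the 29 genes within 1 Mb below Fgfrl1 the median was 0.119, the highest of the classes on that side. The next classes below had 0.074, 0.086 and 0.106 up to 10 Mb, and 0.100, 0.085 and 0.098 beyond. For the 10 genes within 1 Mb above it was 0.040, against 0.104, 0.148 and 0.110 in the next classes up to 10 Mb. The pooled order changed with the setting. Without array 3 the pooled medians were 0.112 within 1 Mb and 0.099 between 1 and 2 Mb, while the ratios of the scanner software gave 0.188 and 0.139. The absolute ratio depends on brightness, with a Spearman's rho of 0.48 on the mean log2 signal over the 302 genes. Among genes well above background throughout, the medians were 0.091, 0.152, 0.152 and 0.172 within 1, 1 to 2, 2 to 5 and 5 to 10 Mb, and 0.145, 0.147 and 0.141 in the 3 classes beyond. On the lower side alone such genes had 0.177 within 1 Mb, and 0.138, 0.152 and 0.201 in the next classes up to 10 Mb. Spearman's rho of the absolute log2 ratio on the distance was 0.08 over the 302 genes and 0.11 over the 178 well above background. These are descriptions over genes that share 3 arrays.

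**Figure D2:**
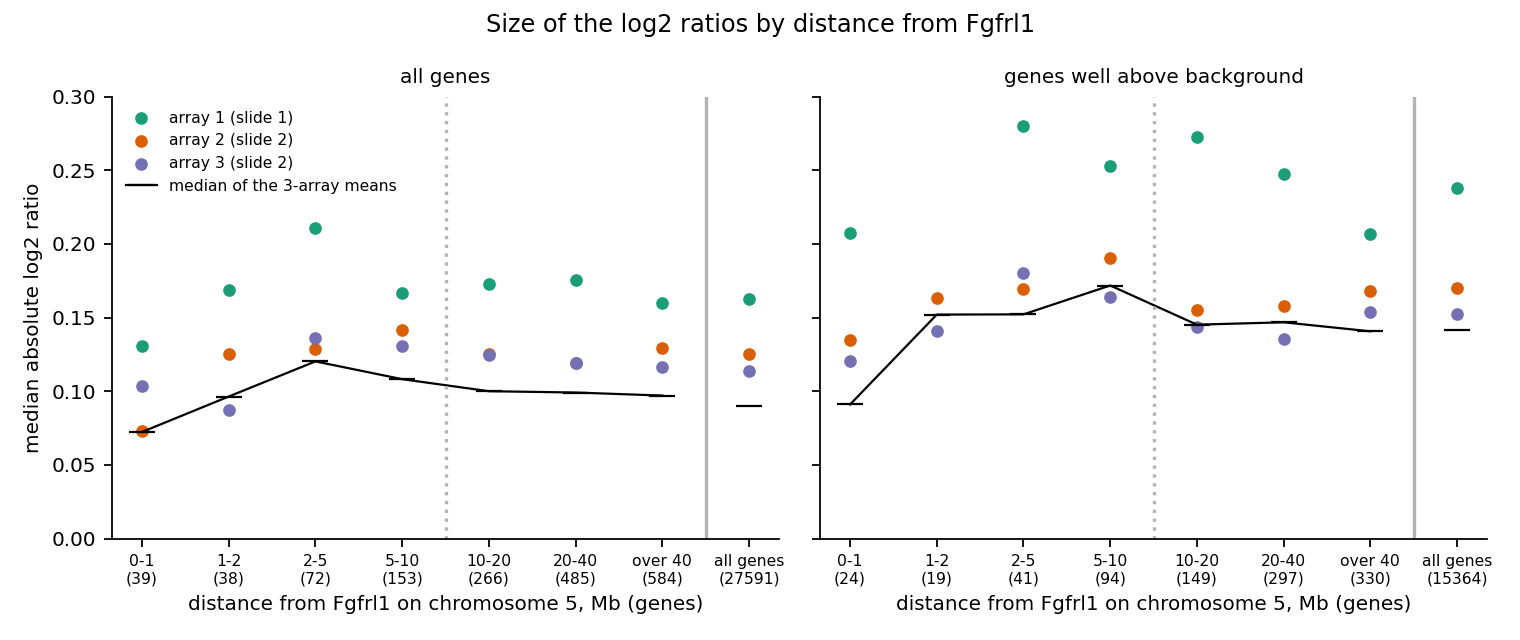
Median absolute log2 ratio in classes of distance from Fgfrl1 on chromosome 5, for each array (points) and for the means of the 3 arrays (black line), with the number of genes in brackets, for all genes (left) and for genes well above background throughout (right). Genes below and above Fgfrl1 are pooled. The dotted line marks 10 Mb, and the pooled class within 1 Mb has the lowest black value in both panels, 0.072 and 0.091.

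Over all its genes the window was close to the rest of the chromosome. The median log2 ratio of the 302 genes was 0.010, with 0.039, 0.008 and -0.002 on arrays 1, 2 and 3, against 0.012 for the rest of chromosome 5 and 0.007 for all genes. The ratio was below 0 for 143 and above 0 for 159 of the 302. Among genes well above background throughout, 73 of 178 were below 0 in the window, with a median log2 ratio of 0.06, against 374 of 776 with a median of 0.007 on the rest of the chromosome. This difference was not tested. The median absolute log2 ratio was 0.105 in the window, 0.098 on the rest of the chromosome and 0.090 over all genes. On single arrays the window exceeded the rest of the chromosome by 0.0011, 0.0025 and 0.0024. The 131 genes below Fgfrl1 and the 171 above it had medians of 0.104 and 0.108. A difference of at least 1.5-fold was found for 6 of the 302 genes, or 1.99%, and 130 of the 302 had ratios of 1 sign on all 3 arrays, or 43.0%, against 38.9% of all genes.

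At the edges of the window the genes just inside were Bmp3 and Cfap299 on the lower side, with mean log2 ratios of 0.46 ± 0.12 and 0.29 ± 0.14, and Rnft2 and Spring1 on the upper side, with 0.25 ± 0.15 and 0.01 ± 0.34. Just outside were 1700010H22Rik and Fgf5, with -0.16 ± 0.03 and -0.05 ± 0.35, and Med13l and 4930413E15Rik, with 0.28 ± 0.45 and -0.01 ± 0.03.

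**Figure D3:**
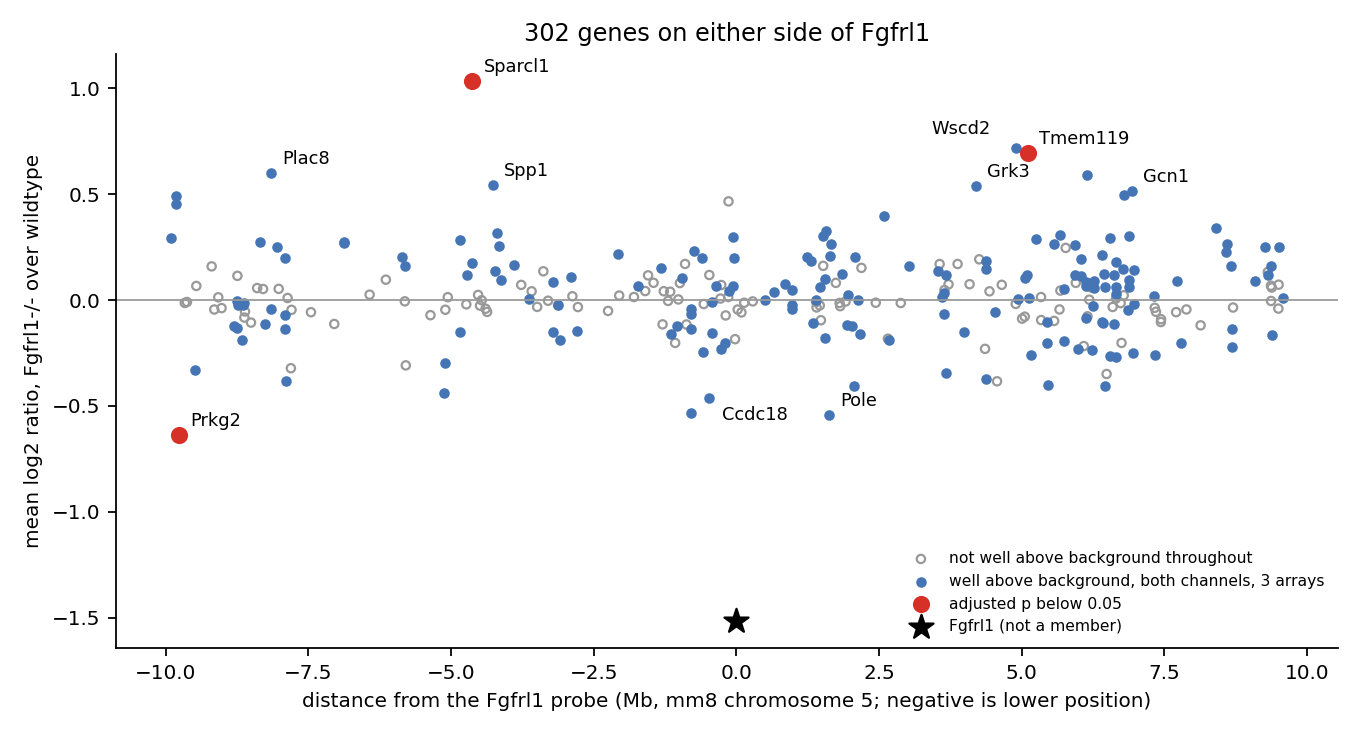
Mean log2 ratio of Fgfrl1-/- over wildtype (3 arrays) of the 302 genes against the distance of their probes from that of Fgfrl1. Filled points are genes well above background throughout, red points passed limma's test, and the star is Fgfrl1 at -1.52. The red points are Prkg2 at -0.64, Sparcl1 at 1.03 and Tmem119 at 0.70, and each lies more than 4 Mb from Fgfrl1.

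At an adjusted p below 0.05, 1 of the 302 genes was lower and 2 were higher in Fgfrl1-/-, or 0.993% together, against 0.986% of all genes. An unadjusted p below 0.05 was found for 58 of the 302, or 19.2%, against 16.5% of all genes and 16.1% of the rest of chromosome 5. The counts move with the number of genes tested and with the arrays. When the 19754 genes with a RefSeq name were tested alone, 12 of 215 members passed, or 5.58%, against 3.66% of those genes. These 12 included 1 gene within 1 Mb, Ccdc18, at 26 genes tested there. Without array 1, 65 of the 302 passed, or 21.5%, against 18.6% of all genes, and 6 of the 39 within 1 Mb, or 15.4%. Without array 2 and without array 3, 0 passed, with 39 and 35 at an unadjusted p below 0.05. Over all 27591 genes, 0.0109% and 0% passed there, and 2672 and 2267 had an unadjusted p below 0.05. When each array was centred on its median in place of loess, 3 members were lower and 0 higher, namely NAP121362-001, Pole and Cox6a1. Over all genes this setting gave 333 lower and 16 higher, or 1.26% together, so that the members showed the same one-sidedness as all genes.

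Sparcl1 had the highest ratio of the window. It encodes a secreted matrix glycoprotein related to SPARC, also known as hevin, and lies at the edge of the bone and tooth matrix cluster, 4.63 Mb from Fgfrl1. Its log2 signals were 13.77, 13.06 and 12.90 in the Fgfrl1-/- pools and 12.76, 11.88 and 11.99 in the wildtype pools. All Fgfrl1-/- pools lay above all wildtype pools, and the difference was seen on both slides, with a log2 ratio of 1.01 on array 1 and of 1.19 and 0.91 on arrays 2 and 3. The mean log2 ratio was 1.03 ± 0.14, a 2.05-fold difference, with an adjusted p of 0.0275. The second probe of Sparcl1, which starts 121 bases from the first, gave a mean log2 ratio of 1.25. Without array 2 and without array 3 the adjusted p was 0.215 and 0.363 at log2 ratios of 0.958 and 1.098, and with median centring the log2 ratio was 0.63 (adjusted p = 0.133).

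Tmem119 encodes a membrane protein that acts in osteoblasts and is widely used as a marker of microglia. It lies 5.11 Mb from Fgfrl1 and was measured by 1 probe. Its log2 signals were 11.05, 10.34 and 10.44 in the Fgfrl1-/- pools and 10.16, 9.74 and 9.84 in the wildtype pools, without overlap. The log2 ratio was 0.89 on array 1 and 0.60 and 0.60 on arrays 2 and 3, with a mean of 0.70 ± 0.16, a 1.62-fold difference, and an adjusted p of 0.0455. This value is close to the threshold. With the table of log2 ratios that the authors deposited the adjusted p was 0.0808, with median centring the log2 ratio was 0.44 (adjusted p = 0.438), and without array 2 and without array 3 the adjusted p was 0.284 and 0.411.

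Prkg2 encodes the membrane-bound cGMP-dependent protein kinase type II, which acts in intestinal secretion and in growth plate cartilage. It lies 9.76 Mb from Fgfrl1, close to the edge of the window. Its log2 signals were 6.81, 7.18 and 7.22 in the Fgfrl1-/- pools and 7.49, 7.80 and 7.84 in the wildtype pools. The wildtype pools all lay above the Fgfrl1-/- pools, and the ratios of -0.68, -0.62 and -0.62 differed little between arrays. The mean log2 ratio was -0.64 ± 0.03, a 1.56-fold difference, with an adjusted p of 0.0354. The second Prkg2 probe, which starts 30999 bases away and was not well above background throughout, gave a mean of -0.15. With the mean of both probes the log2 ratio was -0.40 (adjusted p = 0.0740), and without array 2 and without array 3 the adjusted p was 0.286 and 0.411.

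**Figure D4:**
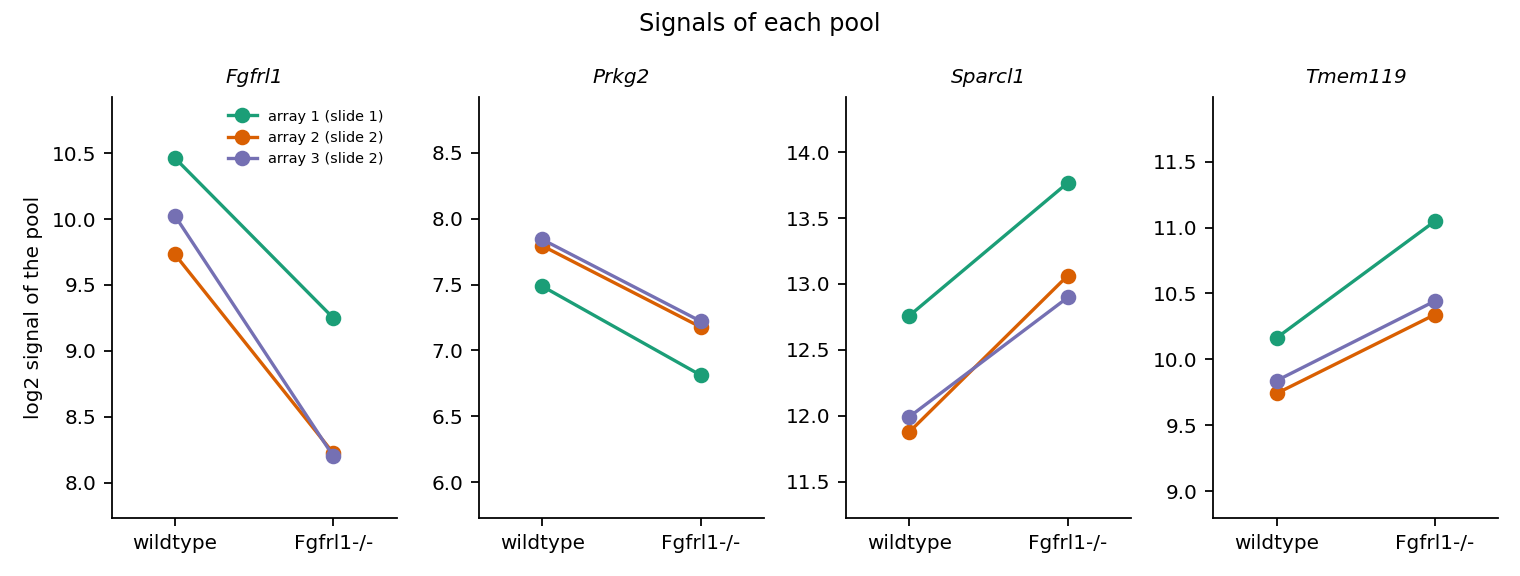
Log2 signal of each pool for Fgfrl1 and the 3 genes of the window that passed limma's test, with a line joining the wildtype and the Fgfrl1-/- pool of an array; each vertical axis spans the same range of log2 units. For Prkg2 every Fgfrl1-/- pool lies below every wildtype pool (means 7.07 and 7.71), and for Sparcl1 (13.24 and 12.21) and Tmem119 (10.61 and 9.91) every Fgfrl1-/- pool lies above.

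Further genes had large ratios of 1 sign on all arrays without passing the test. On the higher side these were Wscd2, Plac8, 2610524H06Rik, Spp1, Grk3 and Gcn1. Wscd2, a gene for a sulfotransferase-like protein, had log2 ratios of 0.43, 1.01 and 0.72 with an adjusted p of 0.0736. Another Wscd2 probe well above background throughout had a mean of 0.21, and a dim probe had 0.01. Plac8, a small cysteine-rich protein of haematopoietic and placental cells, had 0.39, 0.63 and 0.79 with an adjusted p of 0.0693. Spp1, osteopontin, had 0.37, 0.66 and 0.60 with an adjusted p of 0.0649. Grk3, a kinase of G protein-coupled receptors, had 0.72, 0.34 and 0.55, and Gcn1, which couples stalled ribosomes to the amino acid response, had 0.46, 0.66 and 0.43. The non-coding 2610524H06Rik had 1.20 on array 1 but 0.22 and 0.35 on arrays 2 and 3, so that its mean of 0.59 rests on array 1. All these genes were chosen for ratios of 1 sign on all arrays, so that their signs could not differ between slides.

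Markers of macrophages had values in the same direction as these genes. Of 5 macrophage markers, all were well above background throughout, 1 passed the test (C1qa, with a log2 ratio of 0.65 ± 0.11) and 4 had an unadjusted p below 0.05. Their log2 ratios ranged from 0.15 to 0.65, and their summed log2 signal lay between 10.70 and 11.19 in the Fgfrl1-/- pools and between 10.29 and 10.53 in the wildtype pools. Foxd1, the marker of the renal stroma among the rudiment genes, had a log2 ratio of 0.90 ± 0.29 (adjusted p = 0.0534). The 10 rudiment markers, of which 0 passed, had log2 ratios between -0.42 and 0.90 with a median of -0.06, and those of 7 were negative. Their summed log2 signal, which Foxd1 dominates, lay between 15.26 and 15.65 in the Fgfrl1-/- pools and between 14.79 and 15.21 in the wildtype pools. The 5 endothelial markers had log2 ratios between -0.10 and 0.17, and the 4 neural markers between -0.13 and 0.10. Erythroid markers lay between -0.47 and 0.06, markers of adrenal and gonad between -0.17 and -0.01, and muscle markers between -0.03 and 0.31, and 0 of these passed. The part of such cells in the values of Sparcl1, Tmem119, Plac8 and Spp1 was not tested.

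On the lower side, after Prkg2, the genes with ratios of 1 sign were Pole, NAP121362-001, Ccdc18, AK033818, Pus1, Mlec and Ung. Pole, the catalytic subunit of DNA polymerase epsilon, lies 1.63 Mb above Fgfrl1 and had log2 ratios of -0.33, -0.76 and -0.54 with an adjusted p of 0.0842. Its log2 signals were 11.46, 11.28 and 11.36 in the Fgfrl1-/- pools and 11.79, 12.05 and 11.90 in the wildtype pools, without overlap. Ung, the uracil-DNA glycosylase, had -0.67 on array 1 and -0.18 and -0.35 on arrays 2 and 3. Pus1, a pseudouridine synthase that modifies tRNA, had a mean of -0.41 ± 0.12, and Mlec, a lectin of the endoplasmic reticulum, had -0.41 ± 0.12. Of these, Pole and Ccdc18 passed when only genes with a RefSeq name were tested. More of the members that passed in that setting were higher than lower in Fgfrl1-/-.

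Grouped by role, no list held more than 1 gene that passed the test. The counts below are to be read against all genes, of which 16.5% had an unadjusted p below 0.05 and 52.4% a mean log2 ratio above 0, or 27.3% for the former among genes well above background throughout, and against the median log2 ratio of 0.007 over all genes. Of 14 genes for DNA replication, repair and mitosis, 0 passed the test and 4 had an unadjusted p below 0.05, with a median log2 ratio of -0.10. These were Pole, Ung, Abraxas1 (-0.38 ± 0.12), a subunit of a BRCA1 complex, and Golga3 (0.30 ± 0.01), a protein of the Golgi that the name of the list does not cover. Without Golga3, 3 of 13 had an unadjusted p below 0.05, all negative, and the median was -0.13. Rfc5, a clamp loader subunit, and the checkpoint kinase Chek2 had -0.13 ± 0.23 and -0.16 ± 0.21. Of 13 genes for ribosome and RNA processing, 0 passed and 3 had an unadjusted p below 0.05, with a median of -0.04. The ribosomal proteins Rpl5 and Rplp0 had log2 ratios of -0.04 ± 0.07 and 0.06 ± 0.10. The less bright probes of Rplp0, also well above background throughout, had -0.23 and -0.13.

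Of the 6 genes of the bone and tooth matrix group, Sparcl1 passed and Spp1 had an unadjusted p below 0.05, and the other members, Mepe, Ibsp, Dmp1 and Dspp, were not well above background throughout and had log2 ratios between -0.06 and 0.02. Since the absolute ratio depends on brightness, these dim members could hardly have shown a high value. Their ratios do not tell whether their RNA differed. Of 8 guanylate-binding and other interferon-induced genes, 0 passed and Plac8 alone had an unadjusted p below 0.05, while Gbp4, Gbp6, Gbp8 and Gbp9 had log2 ratios from -0.03 to 0.14. Gbp4 and Gbp6 were well above background on 0 arrays, and Gbp8 on 2 in each channel. Among these Gbp genes only Gbp9 was so throughout. The 3 subunits of the volume-regulated anion channel Lrrc8b, Lrrc8c and Lrrc8d had 0.09 ± 0.26, -0.19 ± 0.02 and 0.11 ± 0.07, and 0 passed.

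Of 18 genes for kinases and signalling, Prkg2 passed and 6 in all had an unadjusted p below 0.05, with a median log2 ratio of 0.06. Among them Ptpn13, a tyrosine phosphatase, had -0.30 ± 0.16 and Pebp1, an inhibitor of Raf, had 0.26 ± 0.20. Another probe of Ptpn13 that was well above background throughout had 0.05. Of 8 channels and receptors, 0 passed, 3 had an unadjusted p below 0.05 and 7 were positive, with a median of 0.20. Pkd2, the polycystin that is mutated in polycystic kidney disease, had log2 ratios with a mean of 0.32 ± 0.16, and the cation channel Trpv4 had 0.26 ± 0.11. Of 19 mitochondrial and metabolic genes, 0 passed and 6 had an unadjusted p below 0.05, with a median of 0.06. Sirt4, a mitochondrial sirtuin, had 0.50 ± 0.38, and Cox6a1, a subunit of cytochrome c oxidase, had -0.27 ± 0.14.

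Of 17 developmental regulators and transcription factors, 0 passed and 1, Suds3, had an unadjusted p below 0.05, with a median log2 ratio of -0.04. Mtf2, a Polycomb partner, had 0.20 ± 0.16, and Zfp644, a zinc finger protein, had 0.22 ± 0.22. Other probes well above background had negative means in both genes, for Zfp644 of -0.17 and -0.20. Of 13 neural and lens genes, 0 passed and 3 had an unadjusted p below 0.05, with a median of 0.01. The crystallins Crybb1, Crybb3 and Cryba4 had 0.17 ± 0.11, 0.15 ± 0.06 and 0.14 ± 0.09, while Crybb2, not well above background in any wildtype pool, had -0.23 ± 0.22. Crybb1 was well above background in only 2 Fgfrl1-/- pools and 1 wildtype pool. Crybb3 and Cryba4 were so throughout, but at mean log2 signals of only 6.44 and 6.54. Of 12 genes for chaperones and protein quality control, 0 passed and 4 had an unadjusted p below 0.05, with a median of -0.06, among them Tmed5 with -0.24 ± 0.04 and Sec31a with 0.27 ± 0.10. Of the 2 lysosomal and heparan sulfate degrading enzymes, Idua and Hpse, 0 passed, 0 had an unadjusted p below 0.05, and the log2 ratio of Hpse was 0.05 ± 0.03.

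The probes of a gene often differed by amounts near the size of the ratios. Of the 60 genes with at least 2 probes well above background throughout, 36 had probes up to 0.2 apart in the mean log2 ratio. The other 24 differed by more, and the median difference was 0.144. The median absolute log2 ratio was 0.156 for the 178 genes of the window well above background throughout, and 0.105 for all its genes. In 26 of the 60 the signs of the probes were opposite. In 8 genes they differed by over 0.5, namely Dynll1, Suds3, Gatc, Ssh1, Msi1, Ankle2, Mtf2 and Wscd2, and in 6 of these the signs were opposite.

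Suds3, a subunit of the Sin3 histone deacetylase complex, was the pair with the closest probes among the 8. Its probes start 306 bases apart, and both sequences are shown above. The probe at the lower position had log2 ratios of -0.46, -0.27 and -0.36, and the other had 0.27, 0.34 and 0.41. Each probe kept its sign on all arrays, so that the mean of both was -0.01. Gatc, a subunit of the mitochondrial glutamyl-tRNA amidotransferase, had probes that start 898 bases apart. The probe with the split match had log2 ratios of -0.64, -0.64 and -0.52, with a mean of -0.60 ± 0.07 and an adjusted p of 0.0432 when all probes were tested. The other, which was the brighter and stands for the gene above, had 0.04, 0.12 and 0.03. Dynll1, a light chain of dynein, had a mean of -1.09 ± 0.61 by one probe and of -0.11 ± 0.20 by the brighter one. In Mtf2, 3 of 4 probes had negative means between -0.37 and -0.13, and the brightest probe had 0.20. Which transcripts the probes match was not tested.

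**Figure D5:**
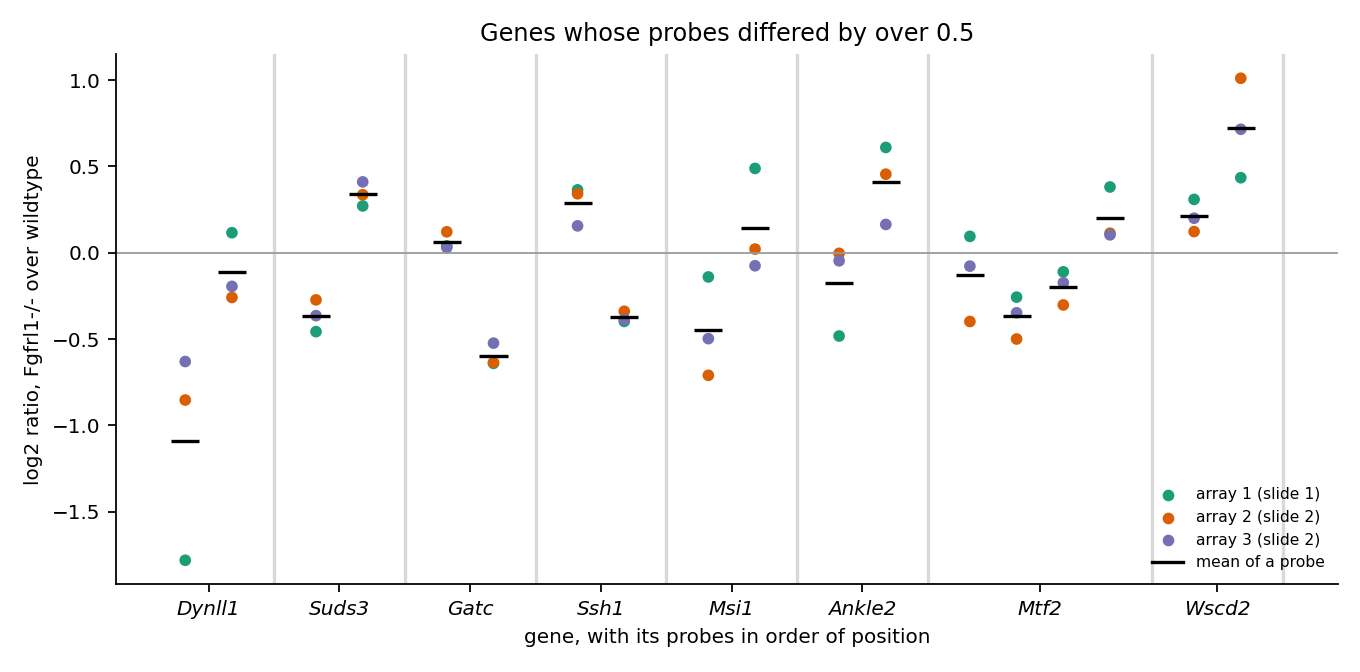
Log2 ratios of Fgfrl1-/- over wildtype on each array for the single probes of the 8 genes whose probes, all well above background, differed by over 0.5, in order of position within a gene, with black bars for the mean of a probe. The Suds3 probes lie at -0.37 and 0.34 and the Gatc probes at 0.06 and -0.60, each with little spread between arrays.

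On the rest of chromosome 5, 16 of 1335 genes passed limma's test, or 1.20%, 7 lower and 9 higher. At least a 2-fold difference was found among these for Uncx (-1.15 ± 0.01), a homeobox factor, Bmp2k (-1.06 ± 0.27), a kinase induced by Bmp2, and Pdgfra (1.02 ± 0.09), a receptor of mesenchymal cells. They lie 30.9, 11.6 and 33.5 Mb from Fgfrl1. In the class between 10 and 20 Mb 7 of 266 genes passed, or 2.63%, the highest share of the classes as reported here but not with RefSeq names alone, where it was 4.83% against 8.93% between 2 and 5 Mb, nor with median centring, with the authors' table or without array 1. Of the 7 genes, Naaa, Sowahb, Bmp2k and NAP027398-1 were lower and lay between 11.4 and 15.6 Mb below Fgfrl1. They were named after their values were seen. The genes with the largest differences on chromosome 5 were not those next to Fgfrl1.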

How the data were processed

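Per the file headers, the authors deposited the Agilent Feature Extraction output of each array (version 9.5.3.1 for array 1, 10.5.1.1 for arrays 2 and 3), with raw spot and background intensities and a log10 ratio per spot, and a table of log2 ratios per probe. Here median intensities were corrected with limma 3.58.1 (normexp, offset 50) and normalized by loess within each array. Control spots (1639 of 45018) and outlier flags were left out, 2, 2 and 0 of them among the 472 member spots. Log2 ratios were tested against 0 with lmFit and eBayes in R 4.3.3, two-sided, with Benjamini-Hochberg adjustment over all 27591 genes; the spread covers pools on 3 arrays, which limit the precision. The script was tested on simulated data. Of 445 member probes, 355 were named through RefSeq (GRCm38.p6, names only). For 1 of them, Cd8b1, the RefSeq gene lies on chromosome 6. "Well above background" is the scanner's flag. Members and lists were chosen with earlier results of these data known. Named were the genes within 1 Mb, those that passed, the 8 highest and 8 lowest ratios of 1 sign among bright genes, list examples, genes with probes over 0.5 apart and, elsewhere on the chromosome, those that passed at 2-fold or more; BC029127 and edge genes were named for their position. Alternatives changed the background, scaling, probes, names, variance model, channels, slides and arrays. Some items are not reported here.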

Additional observations from a re-analysis of the deposited data

How the results depend on the processing

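Of the 302 genes, 1 was lower and 2 were higher as reported. Quantile normalization between arrays, outlier spots kept and separate channels left these counts as they were. In the fit of separate channels the pools of an array stayed linked through an intraspot correlation of 0.628. Both counts were 0 with normexp offset 0, the ratios of the scanner software, a variance trend with robust fitting, and 1 value per slide. Unadjusted p below 0.05 then held for 37, 61, 53 and 37 members, and for 3397, 4323, 3914 and 2489 of all 27591 genes. Over all genes 0%, 0%, 0.0145% and 0% passed in these settings. Lower and higher counts were 3 and 9 with RefSeq names alone, 3 and 0 with median centring, and 0 and 1 with the authors' log2 table. They were 1 and 1 without background subtraction and with dim probes left out. With each gene's probes averaged they were 0 and 2, and with every probe tested 2 and 2. In the latter setting each of 303 genes was counted by its probe with the smallest p. Over all genes or probes tested, 3.66%, 1.26%, 0.286%, 0.71%, 0.839%, 0.692% and 0.687% passed in these settings, in this order. The last share is of 41174 single probes and is not a like measure for the count of genes. With the settings of the report, narrower windows gave 0 and 0 within 2 Mb and 0 and 1 within 5 Mb. With 1 array left out the counts ranged from 0 to 32 lower and 0 to 33 higher. Sparcl1 passed in 10, Prkg2 in 8 and Tmem119 in 7 of the 17 alternatives, and each kept its sign in all 17.

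The median log2 ratio was 0.042 with dim probes left out and 0.032 with median centring. The median absolute log2 ratio was 0.132 with the authors' table, 0.1499 with dim probes left out, 0.155 with median centring, 0.156 for bright members alone, 0.185 with an offset of 0 and 0.199 with scanner ratios. Single genes turned as follows. With every probe tested, the probe with the smallest p gave 0.41 for Ankle2, -0.60 for Gatc, -0.37 for Mtf2, -0.37 for Ssh1 and -0.37 for Suds3. The mean of the probes gave 0.12, -0.27, -0.12, -0.10 and -0.013 for these genes, whose probes differ. Median centring gave -0.14 for Evi5, -0.17 for Mtf2 and 0.045 for Tmed11, scanner ratios gave -0.021 for Gatc, and TC1617856 had 0.0033 in the deposited table; the cause was not tested. The slide as a random block could not be fitted. The few arrays, with 1 on the first slide, limit every value.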
